A study of Mus musculus with 6 samples.

Results

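Cytosolic ribosomal protein genes were examined in brachiocephalic artery lesions of Col15a1-/- (KO) and wild type (WT) mice. They were taken by name from the count table: gene symbols with Rpl or Rps, a number and at most a closing a, x, l or y, together with Rplp0, Rplp1, Rplp2 and Rpsa. This gave 81 of 24391 genes, 49 for the large subunit and 32 for the small subunit, spread over 19 chromosomes. The KO group held 3 Col15a1-/- animals and the WT group 3 wild type animals, all on a C57BL/6 background and all fed a Western diet for 18 weeks. The title of the series speaks of a smooth muscle cell-specific deletion, while the sample labels give the genotype alone and name neither a Cre driver, an Apoe genotype nor an age. RNA came from whole lesions labelled as a mixture of cell types, so fewer cells of a type and less RNA per cell cannot be told apart.

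The ribosome translates mRNA into protein. Its small subunit reads the message, its large subunit joins amino acids, and each carries a set of proteins present in a single copy on a scaffold of ribosomal RNA, apart from the acidic stalk proteins. Their mRNAs are abundant in all nucleated cells and usually begin with a C followed by a run of C and T in the DNA, the terminal oligopyrimidine (TOP) tract, through which the TOR kinase and the RNA-binding protein Larp1 set their translation. In an artery wall, translation capacity is tied to the growth and matrix synthesis of smooth muscle cells and fibroblasts. Several ribosomal proteins act outside the ribosome too, and mutations of some cause Diamond-Blackfan anaemia in humans. Mammalian genomes carry many processed pseudogenes of these genes, which makes their reads hard to place.

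The annotated start of the mRNA was read from RefSeq promoter sequences (GRCm38.p6), in which 60 of the 81 genes were matched. A tract was counted where the annotated first base was C and at least the next 4 bases were C or T on the strand of the gene. The base before the annotated start was not considered in this count. Such letters ran from the annotated start in 13 of 60 ribosomal protein genes (21.7%) and in 800 of 26965 other genes (2.97%). A second count let the tract begin up to 10 bases to either side, but only where the base before it was neither C nor T. By this different definition it was found in 30 of the ribosomal protein genes (50%) and in 26.0% of the other genes. The following windows of 30 bases show 6 of the 13 genes, with 10 bases before the annotated start and the tract in capitals, because this shared start is the sequence feature these mRNAs are known by. 
Rpl15 (large subunit, chr14:18270967-18270996, minus strand): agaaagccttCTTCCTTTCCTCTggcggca
Rpl35 (large subunit, chr2:39005112-39005141, minus strand): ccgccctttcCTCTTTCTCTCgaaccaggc
Rpl38 (large subunit, chr11:114668570-114668599, plus strand): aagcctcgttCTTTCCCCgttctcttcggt
Rps6 (small subunit, chr4:86857348-86857377, minus strand): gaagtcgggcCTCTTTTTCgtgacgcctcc
Rps10 (small subunit, chr17:27635225-27635254, minus strand): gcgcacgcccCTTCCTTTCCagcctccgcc
Rps18 (small subunit, chr17:33955646-33955675, minus strand): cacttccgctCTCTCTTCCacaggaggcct
Counted from the annotated start, the tract was 13 bases long in Rpl15 and 8 bases long in Rpl38. In each window shown the base before that start was C or T as well, so the run of C and T reached further upstream. A match describes these letters at an annotated start and does not show where transcription began in the lesions.

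The members with a close copy elsewhere in the genome were set beside it. Rps4x, the X-linked gene of a small-subunit protein, and Rps4l, which GENCODE annotates as a transcribed processed pseudogene on chromosome 6, were alike in 81.4% of 829 aligned mRNA bases. The first 60 bases of the Rps4x coding sequence and the stretch of Rps4l aligned to them are shown because Rps4l was the single member whose KO and WT libraries did not overlap. Capitals mark the 7 bases at which they differ, in GENCODE M21 transcripts.
Rps4l: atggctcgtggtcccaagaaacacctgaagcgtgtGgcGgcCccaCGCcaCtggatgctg
Rps4x: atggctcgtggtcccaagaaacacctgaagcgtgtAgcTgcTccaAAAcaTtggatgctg
Rps27l and Rps27, 2 genes of a small-subunit zinc-finger protein, are shown next because Rps27 was nearly uncounted and Rps27l was not. They were alike in 80% of 235 aligned bases and differ at 12 of these 60.
Rps27l: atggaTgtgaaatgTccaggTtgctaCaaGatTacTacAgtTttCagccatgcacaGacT
Rps27: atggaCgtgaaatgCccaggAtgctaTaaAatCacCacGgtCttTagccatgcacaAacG
Neither pair shared any stretch of 50 identical bases. The longest identical run was 38 bases between Rps4x and Rps4l and 11 bases between Rps27 and Rps27l.

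Total gene counts ran from 23133078 to 26228384 in the KO libraries and from 22223584 to 26982005 in the WT libraries. The deleted gene Col15a1, which encodes a basement membrane zone collagen, had 4487, 4542 and 2307 counts in KO and 12629, 12111 and 12973 counts in WT, summed over all its exons. Labelled cell types were present: summed markers of smooth muscle were at 6276 to 15417 CPM (counts relative to library size, scaled to 1000000) in KO and 5848 to 10339 CPM in WT, and of 8 macrophage markers at 656 to 1432 CPM in KO and 1980 to 2290 CPM in WT, with no marker of either list at 0. KO 3 and WT 2 stood apart from the other libraries through sympathetic neuron markers, with summed levels of 4751 CPM in KO 3 and 2403 CPM in WT 2 against 185 to 272 CPM in the other 4. The 45S ribosomal RNA precursor Rn45s took 8.13%, 6.77% and 10.4% of counts in KO 1 to KO 3, and 6.25%, 2.04% and 9.57% in WT 1 to WT 3.

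Reads of ribosomal protein genes made up 1.43%, 1.65% and 1.32% of all gene counts in the KO libraries, against 1.65%, 1.61% and 1.56% in the WT libraries. KO 2 lay at the level of the highest WT library and KO 1 and KO 3 lay below all of them, so the groups overlapped. The means were 1.47% ± 0.164 in KO and 1.60% ± 0.0468 in WT (SD, n = 3 each), a difference of -0.135 percentage points. It was -0.063 percentage points without KO 3, -0.224 without KO 2 and -0.062 without both KO 3 and WT 2, and between -0.159 and -0.112 without any other single library. Without Rn45s in the total the shares were 1.56%, 1.77% and 1.48% in KO and 1.76%, 1.64% and 1.72% in WT. The proportion between the subunits was close in both groups: the summed CPM of large-subunit genes over small-subunit genes was 1.44 ± 0.0249 in KO and 1.43 ± 0.0180 in WT (SD, n = 3 each).

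Most members passed the count filter. In total, 76 of the 81 had enough counts to be tested, 44 of the large and 32 of the small subunit. A mean of at least 10 CPM, called well-counted here, was reached by 74. This name refers to the counts kept and not to reads left out, described below. Among those 74 the mean level per length ran from 14.0 CPM per kb of exon (Rps4l) to 774 CPM per kb (Rplp1), with a median of 271. The lower and upper quartiles were 179 and 362 CPM per kb, so the middle of the list spanned 2.03-fold. Large-subunit and small-subunit genes had medians of 268 and 277 CPM per kb.

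**Figure D1:**
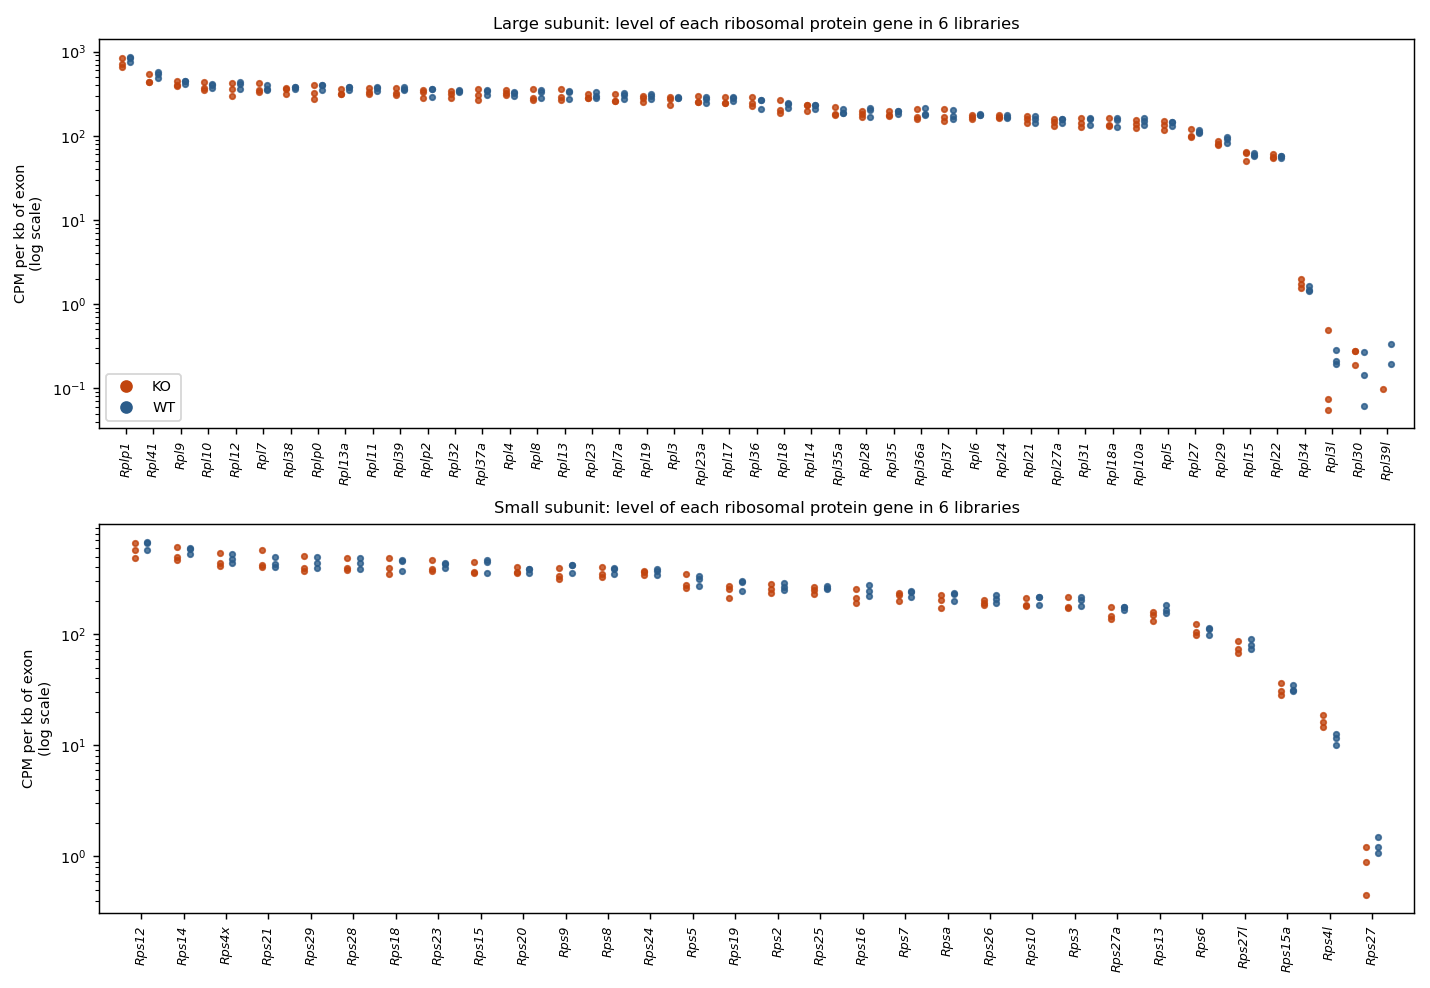
Level of each ribosomal protein gene in CPM per kb of exon (log axis), with large-subunit genes above and small-subunit genes below, ordered by their mean; each point is 1 library, 3 KO and 3 WT, and libraries at 0 are not drawn, so Rpl26 and Rpl10l are missing, and a few genes not reported by name are left out. Most genes lie between 100 and 1000 CPM per kb with KO and WT points mixed, and a few fall far below.

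Rplp1, a protein of the acidic stalk that recruits the translation GTPases, had the highest level, 732 ± 91.7 CPM per kb in KO and 815 ± 59.7 in WT (SD, n = 3 each). Rps12, Rps14, Rpl41 and Rps4x came next. Rps12 was at 571 ± 92.5 CPM per kb in KO and 639 ± 57.8 in WT. Rps14, whose loss of a copy underlies the anaemia of the 5q- syndrome in humans, was at 525 ± 77.7 CPM per kb in KO and 568 ± 37.1 in WT. Rpl41, which encodes the smallest ribosomal protein, was at 465 ± 60.01 CPM per kb in KO and 531 ± 39.0 in WT, and Rps4x at 463 ± 62.1 in KO and 481 ± 42.9 in WT. Rplp1 stood above Rps12 by more than the SD of either in both groups. From Rps12 down, neighbours in this order differed by less than the larger of their SDs in KO, and in WT this was so for Rps14 and Rpl41 alone. These SDs are between libraries. They do not cover reads left out of a gene's counts, described below, for which the levels were not corrected. At the lower end of the well-counted genes, Rps15a was at 31.8 ± 3.86 CPM per kb in KO and 32.4 ± 2.11 in WT, over an annotated exon length of 5134 bases, and Rpl22, which has a role in T cell development, at 56.9 ± 3.69 in KO and 56.4 ± 1.88 in WT, over 2497 bases. Across the 74 genes, Pearson's r between level per kb and exon length was -0.52 and Spearman's rho -0.45, a description of genes that share libraries and annotation, and length stands in the divisor of the level.

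A few members were at or near 0, and these formed 2 kinds. The first kind consisted of 4 widely expressed genes whose exons were also annotated to another gene name. Rpl26 encodes a large-subunit protein that also binds p53 mRNA in human cells (chromosome 11, 68715068 to 68718036, mm9). It had 0 counts in all 6 libraries. A floor of 3 counts was 0.118 to 0.131 CPM in the KO libraries and 0.101 to 0.136 CPM in the WT libraries. Of the 543 exon bases of Rpl26, 520 (95.8%) were also given to Gm15772, so this floor does not bound its level. Rpl30, another large-subunit gene (chromosome 15, 34370263 to 34373031), had 4, 4 and 3 counts in KO and 2, 5 and 1 counts in WT, with 76.0% of its exon bases shared with Gm12191. Rps27 (chromosome 3, 90016589 to 90017570) had 6, 16 and 13 counts in KO and 19, 21 and 16 counts in WT, with 60% of its bases shared with Rps27rt. Rpl34 (chromosome 3, 130429745 to 130433316) had 28, 31 and 27 counts in KO and 25, 29 and 26 counts in WT, with 59.9% of its bases shared with Rpl34-ps1. In each of these 4 genes the KO and WT libraries overlapped.

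The names laid over these genes are those of copies. GENCODE M21 lists Gm15772, Gm12191 and Rpl34-ps1 as processed pseudogenes on chromosomes 5, 11 and 6, and Rps27rt as a protein-coding gene on chromosome 9, whereas the count table of the authors placed them on chromosomes 11, 15, 3 and 3, over the exons of the parent genes. The copies themselves had 0 counts in all 6 libraries for Gm15772, Rpl34-ps1 and Rps27rt, and 1 count in total for Gm12191. The counter left out any read that lay over exons of more than 1 gene name, and 0.347% to 0.384% of KO alignments and 0.377% to 0.448% of WT alignments were left out in this way. The bases not shared amounted to 23 in Rpl26, 150 in Rpl30, 230 in Rps27 and 276 in Rpl34. No level of these 4 genes in the lesion can be read from the table.

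Other members shared a smaller part of their exons with another name, and how many reads any gene lost was not measured. Rpl5, which with Rpl11 binds and inhibits Mdm2 (the ubiquitin ligase of p53), shared 47.7% of its exon bases with Fam69a and was at 137 CPM per kb over all 6 libraries. Rpl31 shared 33.0% with Tbc1d8 and was at 147 CPM per kb, and Rps25, which is needed for initiation at some internal ribosome entry sites, shared 29.4% with Ccdc84 and was at 255 CPM per kb. In all, 11 of the 81 genes had at least 1 exon base annotated to another name.

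Reads that aligned to several places were left out of the counts too, at 29.9% to 32.5% of KO alignments and 30.9% to 33.4% of WT alignments. The share of each mRNA at risk was measured as the share of its 50-base stretches that also occur in GENCODE transcripts of other genes. Its median over the 81 genes was 49.3%. It was 71.3% in Rpl26, 47.8% in Rpl30, 63.1% in Rps27 and 25.8% in Rpl34. Among the 74 genes with at least 10 CPM, which leave out the near-0 genes by their level, the 13 with at least 80% repeated stretches had 108 to 605 CPM per kb, with a median of 290, and the other 61 a median of 264. Rpl9 was repeated over 93.3% of its stretches and Rpl10 over 92.1%, and they were at 423 and 392 CPM per kb. Across the same 74 genes Pearson's r between repeated share and level was 0.26 and Spearman's rho 0.13, a description with no test. The part of repeated sequence or of shared exons in the near-0 counts was not tested. Pseudogenes that are not transcribed are in part missing from the transcript set, and the genome itself was not searched.

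**Figure D2:**
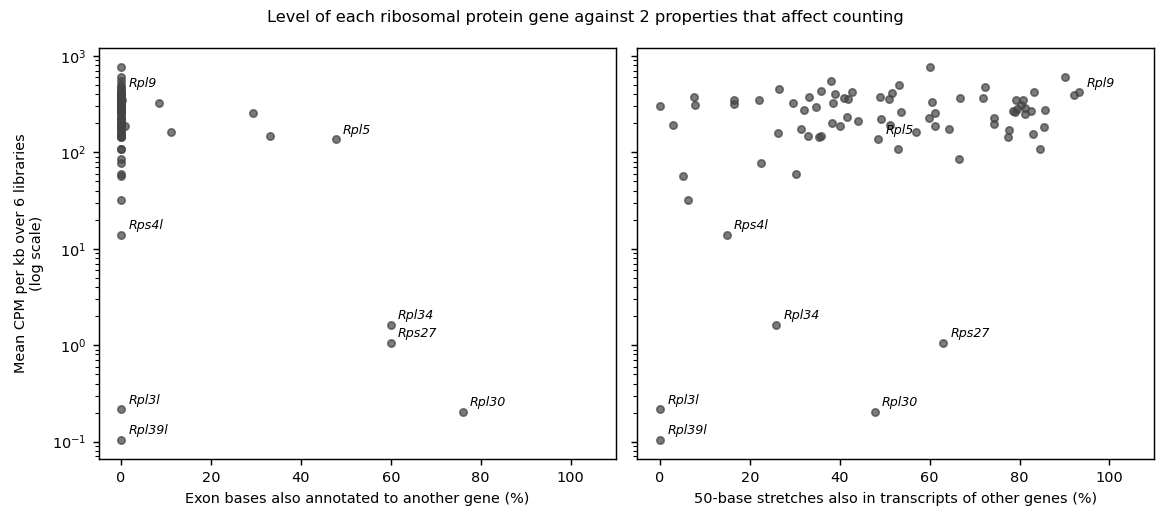
Mean level over 6 libraries in CPM per kb of exon (log axis) against the percentage of exon bases also annotated to another gene in the mm9 table (left) and the percentage of 50-base stretches also found in transcripts of other genes (right); each point is 1 gene, and Rpl26 and Rpl10l, at 0, are not drawn. On the left, Rpl30, Rpl34 and Rps27, with an overlap of 59.9% to 76.0%, are under 2 CPM per kb. Rpl5, with an overlap of 47.7%, is at 137 CPM per kb. On the right, Rpl9, repeated over 93.3% of its stretches, is at 423 CPM per kb. The part of either property in the near-0 counts was not tested.

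The other kind of near-0 member had no overlapping name and is known for expression in other tissues. Rpl10l, a retrogene copy of the X-linked Rpl10 used in the testis, had 0 counts in all 6 libraries. Rpl39l, the testis copy of Rpl39, had 0, 0 and 2 counts in KO and 0, 8 and 4 counts in WT. Rpl3l, the striated-muscle copy of Rpl3, had 18, 2 and 3 counts in KO and 10, 10 and 8 counts in WT. KO 1, the highest library for Rpl3l, was also the highest for summed skeletal muscle markers, with 336, 44.0 and 18.2 CPM in KO and 89.4, 12.3 and 9.43 CPM in WT, and their part in this count was not tested. The partner genes were expressed throughout: Rpl10 was at 386 ± 41.4 CPM per kb in KO and 397 ± 24.2 in WT, Rpl39 at 334 ± 36.02 in KO and 364 ± 16.6 in WT, and Rpl3 at 265 ± 29.8 in KO and 282 ± 6.50 in WT (SD, n = 3 each).

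Between KO and WT, 0 of the 76 tested members passed an adjusted p of 0.05 in edgeR's quasi-likelihood test, as did 0 of all 15937 genes tested (0.00%). The smallest adjusted p of a member was 0.587. An unadjusted p under 0.05 was reached with KO higher by 1 member, Rps4l, against 4.02% of all genes, and with KO lower by 0 members, against 3.98% of all genes. DESeq2 passed 0 members against 63 of all genes (0.395%). A positive log2 fold change (KO over WT) was found in 9 members and a negative one in 67, whereas 60.9% of all genes were positive. The median log2 fold change was -0.079 over the members, with quartiles of -0.12 and -0.042, and 0.068 over all genes. It was -0.078 over large-subunit genes, 6 of 44 of them positive, and -0.085 over small-subunit genes, 3 of 32 of them positive. The size of the split depended on single libraries. Without KO 3, 29 of 77 members were positive (median -0.026), and without WT 1, 24 of 76 (median -0.046). Only 3 of 77 were positive without KO 2 (median -0.172), without WT 2 (median -0.129) or without WT 3 (median -0.134). Without both KO 3 and WT 2, 7 of 77 were positive and the median was -0.085. The values of all genes moved too: 49.5% were positive without KO 3 (median -0.0030), 59.8% without WT 1 (median 0.065), 59.6% without KO 2 (median 0.075), 57.9% without WT 2 (median 0.054), 46.8% without WT 3 (median -0.017) and 50.5% without both KO 3 and WT 2 (median 0.0026). Members share the libraries and vary together, so the number with a negative sign is not a number of independent observations. The 8 macrophage markers, all with a lower mean in KO, moved with the groups as well, and their part in the sign of the members was not tested.

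**Figure D3:**
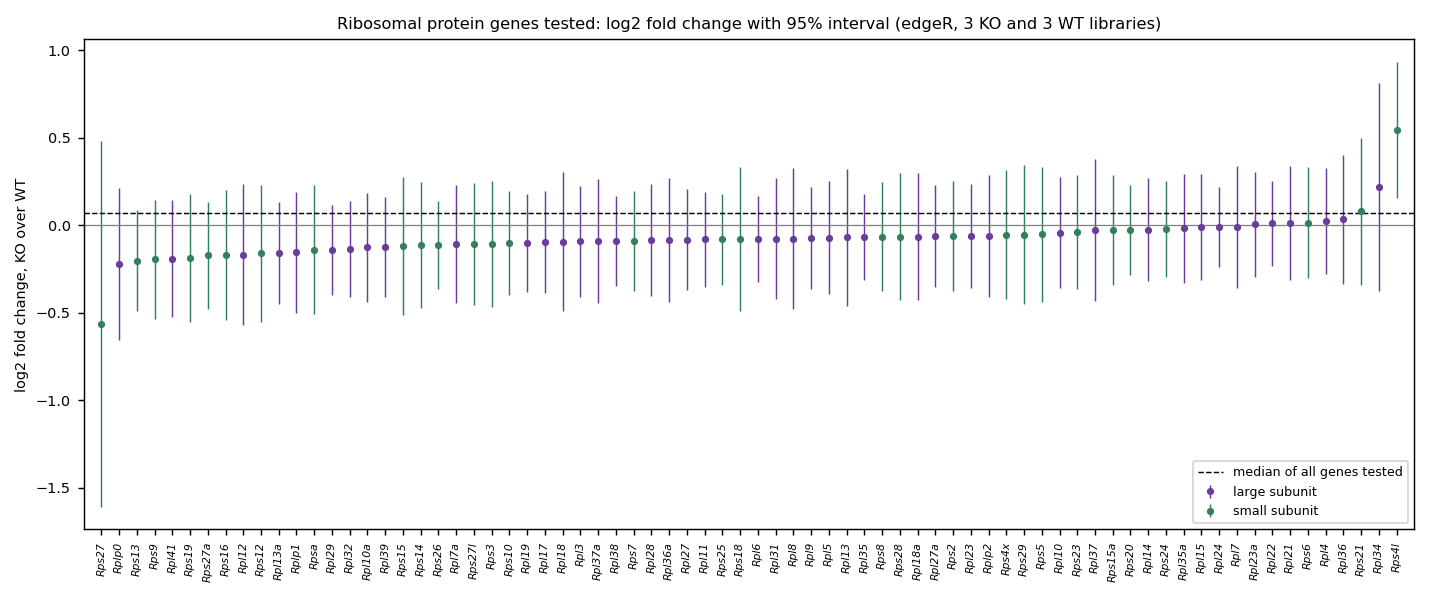
Log2 fold change (KO over WT) of the ribosomal protein genes tested, apart from a few not reported by name, ordered by value and coloured by subunit. The 95% intervals were computed from the edgeR test over 3 KO and 3 WT libraries. The dashed line is the median of all genes tested, 0.068. The intervals of all genes drawn but Rps4l include 0.

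The changes were small and narrowly bounded. The standard error of the log2 fold change of the 74 well-counted members had a median of 0.131, from 0.0936 to 0.178, against a median of 0.213 over all genes tested. Their 95% intervals lay within -0.5 to 0.5 for 63 of 74 members and within -1 to 1 for all 74, the lowest bound being -0.65 (Rplp0) and the highest 0.93 (Rps4l). A change of more than 2-fold in either direction was therefore outside the interval of each well-counted gene. In 65 of the 74 the log2 fold change was within 0.1 of the median of the list.

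The 9 positive members were Rps4l, Rpl34, Rps21, Rpl36, Rpl4, Rpl22, Rps6, Rpl21 and Rpl23a. Rps4l (chromosome 6, 148303178 to 148304118, mm9) was at 13.8, 15.4 and 17.8 CPM in KO, against 11.9, 9.44 and 10.9 CPM in WT. Each KO library lay above each WT library, which was so for 8.33% of all genes. The log2 fold change was 0.54 (SE 0.16, 95% interval 0.15 to 0.93), with an unadjusted p of 0.0140 and an adjusted p of 0.587 in edgeR. Without KO 3 and WT 2 it was 0.35, and over all alternatives the adjusted p ran from 0.213 to 1.00. Its partner Rps4x was at 387, 467 and 363 CPM in KO and 460, 385 and 419 CPM in WT, with a log2 fold change of -0.055. Rps4l reached 16.7 ± 2.15 CPM per kb in KO and 11.4 ± 1.32 in WT, well below the 463 ± 62.1 in KO and 481 ± 42.9 in WT of Rps4x.

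Of the remaining positive members, Rpl34 had a log2 fold change of 0.22 (SE 0.24, 95% interval -0.37 to 0.81) on the few counts given above, and the other 7 were between 0.0052 and 0.079. Rps21 had a log2 fold change of 0.079, with 159, 223 and 166 CPM in KO and 194, 157 and 167 CPM in WT, and KO 2 was its highest library. Rps6, whose protein is phosphorylated by the S6 kinases downstream of TOR, was at 137, 172 and 147 CPM in KO and 156, 137 and 159 CPM in WT (log2 fold change 0.014). Rpl4, whose protein lines the exit tunnel of the large subunit, had a log2 fold change of 0.023, and Rpl22 one of 0.011. Under total-count scaling 3 members were positive, Rps4l (0.50), Rpl34 (0.17) and Rps21 (0.035). The fold changes of Rps6, Rpl4, Rpl21, Rpl22, Rpl36 and Rpl23a turned negative.

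Of the members with a negative log2 fold change, the 8 with the smallest unadjusted p were Rps13, Rpl41, Rps9, Rps27a, Rpl13a, Rpl29, Rps27 and Rplp0, and their KO and WT libraries overlapped in each case. Rps13, a small-subunit protein gene, was at 86.5, 91.8 and 76.3 CPM in KO and 107, 90.7 and 95.6 CPM in WT. KO 2 lay above WT 2, and the log2 fold change was -0.20 (SE 0.12, adjusted p 0.709 in edgeR). Rpl41 was at 193, 240 and 194 CPM in KO and 253, 219 and 243 CPM in WT, with a log2 fold change of -0.19. Rps9 was at 236, 277 and 221 CPM in KO and 293, 251 and 297 CPM in WT, with a log2 fold change of -0.20. Rps27a encodes a small-subunit protein made as a fusion with ubiquitin. It was at 120, 144 and 112 CPM in KO and 144, 143 and 136 CPM in WT (log2 fold change -0.17). Rpl13a, whose human protein leaves the ribosome to silence inflammatory mRNAs after interferon-gamma, was at 324, 372 and 323 CPM in KO and 392, 362 and 384 CPM in WT (log2 fold change -0.16). Rpl29 was at 57.4, 62.0 and 55.2 CPM in KO and 65.8, 58.5 and 68.2 CPM in WT (log2 fold change -0.14). KO 2 reached into the WT range in each of these genes.

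The groups did not overlap in 1 member, Rps4l, against 16.7% of all genes in either direction and 8.38% with KO below. This count depended on the scaling. With plain total counts in place of TMM factors (trimmed mean of M-values, edgeR's scaling), 10 members did not overlap: Rps4l with KO above, and 9 with KO below, among them Rpl19, Rpl38, Rps7, Rps9, Rps19, Rpl13a, Rps13 and Rpl29. With that scaling 5.92% of all genes had KO above and 10.1% had KO below. The TMM factor was 1.10 in WT 2 and between 0.960 and 1.00 in the other libraries.

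The stalk proteins, which recruit the elongation factors to the large subunit, had negative log2 fold changes, as had 67 of the 76 tested members. Rplp0, the stalk base, was at 438, 540 and 367 CPM in KO and 548, 479 and 542 CPM in WT. KO 3 was the lowest library and KO 2 lay among the WT libraries, with a log2 fold change of -0.22 (SE 0.18, adjusted p 0.811 in edgeR). Rplp1 was at 333, 390 and 306 CPM in KO and 402, 350 and 393 CPM in WT (log2 fold change -0.15), and Rplp2 at 147, 156 and 126 CPM in KO and 160, 128 and 159 CPM in WT (log2 fold change -0.060). Rpsa, a small-subunit protein that is also known as a laminin receptor at the cell surface, was at 381, 422 and 323 CPM in KO and 429, 373 and 439 CPM in WT (log2 fold change -0.14).

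Among the genes mutated in Diamond-Blackfan anaemia in humans, 8 are described, and all 8 had negative log2 fold changes with overlapping groups. This was so for most members: 67 of the 76 tested were negative, and the groups overlapped in all of them but Rps4l. Rps19, the gene most often mutated, was at 161, 173 and 132 CPM in KO and 185, 154 and 190 CPM in WT, with a log2 fold change of -0.19. Rps26 was at 82.4, 91.1 and 86.0 CPM in KO and 101, 92.9 and 86.4 CPM in WT (log2 fold change -0.11). For Rps10 it was -0.10, for Rps7 -0.088, for Rps24 -0.022 and for Rpl35a -0.017. Rpl5 and Rpl11, the Mdm2-binding pair, had log2 fold changes of -0.071 and -0.081, with Rpl5 at 272, 302 and 239 CPM in KO and 296, 265 and 293 CPM in WT, and Rpl11 at 188, 219 and 199 CPM in KO and 223, 201 and 217 CPM in WT. Rps27l, a p53 target in human cells, was at 33.9, 39.9 and 31.3 CPM in KO and 42.3, 36.8 and 34.3 CPM in WT (log2 fold change -0.11).

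These genes varied together between libraries of the same group. Relative to each gene's own mean over the 6 libraries on the log2 CPM scale with TMM factors, the median deviation of the 74 well-counted genes was -0.10 in KO 1, 0.12 in KO 2 and -0.16 in KO 3, and 0.12 in WT 1, -0.069 in WT 2 and 0.077 in WT 3. KO 2 lay above the gene's mean in 74 of 74 genes, WT 1 in 73 and WT 3 in 63, but KO 1 in 4, KO 3 in 5 and WT 2 in 10. KO 3 was the lowest library for 43 genes, KO 1 for 20 and WT 2 for 11. The highest library was KO 2 for 33 genes, WT 1 for 27, WT 3 for 13 and KO 3 for 1. The place of WT 2 and the size of these deviations rested on the scaling. With total counts in place of TMM, the median deviation was -0.096, 0.099 and -0.21 in KO 1, KO 2 and KO 3, and 0.11, 0.073 and 0.018 in WT 1, WT 2 and WT 3, and WT 2 lay above the gene's mean in 61 of 74 genes. KO 2 above KO 1 and KO 3 held under both scalings.

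**Figure D4:**
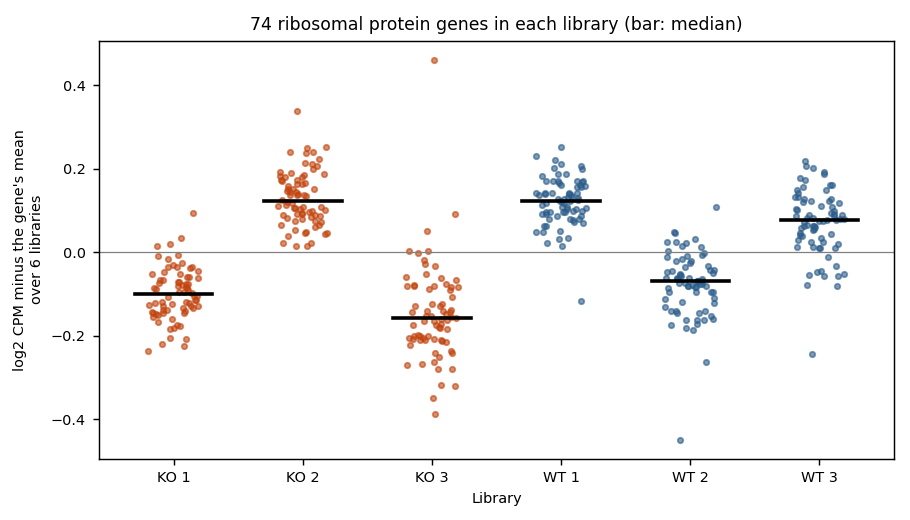
Deviation of the 74 well-counted ribosomal protein genes from their own mean over 6 libraries (log2 CPM, TMM-scaled), by library, KO 1 to KO 3 on the left and WT 1 to WT 3 on the right; each point is 1 gene and each bar the median. KO 2, WT 1 and WT 3 lie above 0 and KO 1, KO 3 and WT 2 below it with TMM factors, and WT 2 lies above it with total counts (median 0.073).

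Other measures of the libraries are given beside this order. Summed smooth muscle markers were at 9658, 15417 and 6276 CPM in KO 1, KO 2 and KO 3, and at 10339, 5848 and 8118 CPM in WT 1, WT 2 and WT 3. KO 2 and WT 1, the highest libraries for these markers, were also the highest in median deviation. KO 3, the lowest in deviation, was the lowest KO library for them. Other libraries did not follow this order. KO 1 lay above WT 3 in these markers but below it in deviation (-0.10 against 0.077 with TMM factors). WT 2 was the lowest library for the markers but not in deviation (-0.069). The libraries with high neuronal markers, KO 3 and WT 2, had a negative median deviation with TMM factors, as did KO 1, with 214 CPM of neuronal markers, and with total counts KO 3 and KO 1 alone did. Adipocyte markers summed to 1260, 968 and 1102 CPM in KO and 771, 233 and 603 CPM in WT, higher in each KO library. Summed levels of the ribosomal protein genes themselves were 14311, 16772 and 13695 CPM in KO and 16670, 14563 and 16217 CPM in WT. The part of smooth muscle, neuronal or adipocyte content in these levels was not tested.

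The genes kept close to each other across libraries. The first principal component of their log2 CPM held 76.6% of the variance, and the median pairwise Pearson's r over 6 libraries was 0.82, against 0.51 among 62 mitochondrial ribosomal protein genes of at least 10 CPM. Both values include differences between the groups and a library factor that all genes share. The cytosolic and mitochondrial genes were not matched in level, and the part of level in these values was not tested. The median within-group SD of log2 CPM was 0.143 for the 74 genes and 0.174 for the mitochondrial genes. It was 0.195 for 8996 other genes with a mean between the lowest and highest of the 74. Rps4l set the low end, at 15.7 CPM in KO and 10.8 CPM in WT. Rps27l came next, at 35.1 CPM in KO and 37.8 CPM in WT. These sets were not matched in level, and the part of level in these SDs was not tested. Rpl7a, Rpl8 and Rps14 followed the mean of the other members most closely, with r of 0.994, 0.987 and 0.985 over the 6 libraries, and the median over all members was 0.895. The lowest values were in Rps4l (-0.23), in the scarcely counted Rpl34 (0.37) and in Rpl15 (0.40).

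Genes of cytosolic ribosomal proteins and copies whose names lie outside the rule were described by a list of their own. All 6 of that list that were tested were negative, with a median log2 fold change of -0.066, and 3 of them were close to 0 (Rpl22l1 -0.0077, Rpl36al -0.017 and Rpl7l1 -0.028). Rps3a1, a small-subunit gene outside both the name rule and the list and added after its values were seen, averaged 371 ± 53.5 CPM in KO and 386 ± 20.1 CPM in WT (SD, n = 3 each), with a log2 fold change of -0.058. Gnb2l1, the scaffold protein of the small subunit also called Rack1, was at 316, 389 and 267 CPM in KO and 393, 318 and 391 CPM in WT, with a log2 fold change of -0.18. Fau, which encodes a small-subunit protein fused to a ubiquitin-like domain, was at 124, 128 and 106 CPM in KO and 134, 125 and 142 CPM in WT (log2 fold change -0.16). KO 2 was the highest KO library for both of these genes.

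The wider translation pathway was described by counts, and 0 genes of these lists passed. Of 14 other TOP mRNAs, for elongation and initiation factors and a few further proteins, 6 were positive and 8 negative, with a median log2 fold change of -0.028. Pabpc1, the cytoplasmic poly(A)-binding protein, was at 213, 196 and 150 CPM in KO and 202, 209 and 273 CPM in WT (log2 fold change -0.29, SE 0.19). Of 27 initiation factor genes, 15 were positive, with a median of 0.017. Eif4a1, the RNA helicase of the cap-binding complex, was at 233, 259 and 221 CPM in KO and 264, 290 and 286 CPM in WT. Each KO library lay below each WT library, as in 8.38% of all genes, with a log2 fold change of -0.24 (SE 0.12, adjusted p 0.668 in edgeR). This was the lowest value of the list, and the highest was that of Eif4a2, 0.36. Eif6 did not overlap either, at 28.9, 35.8 and 37.9 CPM in KO and 39.2, 39.1 and 40.8 CPM in WT (log2 fold change -0.21). Of 30 ribosome assembly genes, 20 were positive, with a median of 0.054, and of 11 RNA polymerase I genes 9 were positive, with a median of 0.034. Ltv1 and Mak16 of the assembly list had each KO library below each WT library. Polr1d of the RNA polymerase I list had each KO library above, as in 8.33% of all genes. The median of all genes tested was 0.068.

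In the TOR pathway, which controls the translation of TOP mRNAs, 12 of 17 genes were positive, with a median log2 fold change of 0.050. Rragc, a Rag GTPase that brings the TOR complex to the lysosome, was at 74.2, 71.8 and 70.1 CPM in KO and 78.8, 86.3 and 92.1 CPM in WT, with no overlap (log2 fold change -0.25, SE 0.099, unadjusted p 0.0427, adjusted p 0.617 in edgeR). Mtor itself was at 139, 131 and 184 CPM in KO and 110, 130 and 131 CPM in WT (log2 fold change 0.29). Of 11 genes of Mdm2 and p53 targets, 4 were positive, with a median of -0.061. Bax, a pro-apoptotic target of p53, was at 25.3, 23.6 and 19.5 CPM in KO and 29.4, 29.3 and 33.1 CPM in WT (log2 fold change -0.43, SE 0.14, unadjusted p 0.0203, adjusted p 0.587 in edgeR). Cdkn1a, the cell cycle inhibitor p21, was at 18.6, 24.4 and 19.0 CPM in KO and 28.3, 31.1 and 24.7 CPM in WT (log2 fold change -0.44, unadjusted p 0.0329, adjusted p 0.599 in edgeR). Both had each KO library below each WT library, as 8.38% of all genes did.

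Mitochondrial ribosomal protein genes, which encode the separate ribosome of that organelle, had the other sign: 66 of 77 were positive and 11 negative, with a median log2 fold change of 0.129 against -0.079 for the cytosolic genes and 0.068 for all genes. None of them passed, and 2 of 77 had an unadjusted p under 0.05 in edgeR, as had 1275 of the 15937 genes tested. The difference between these lists was not tested.

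**Figure D5:**
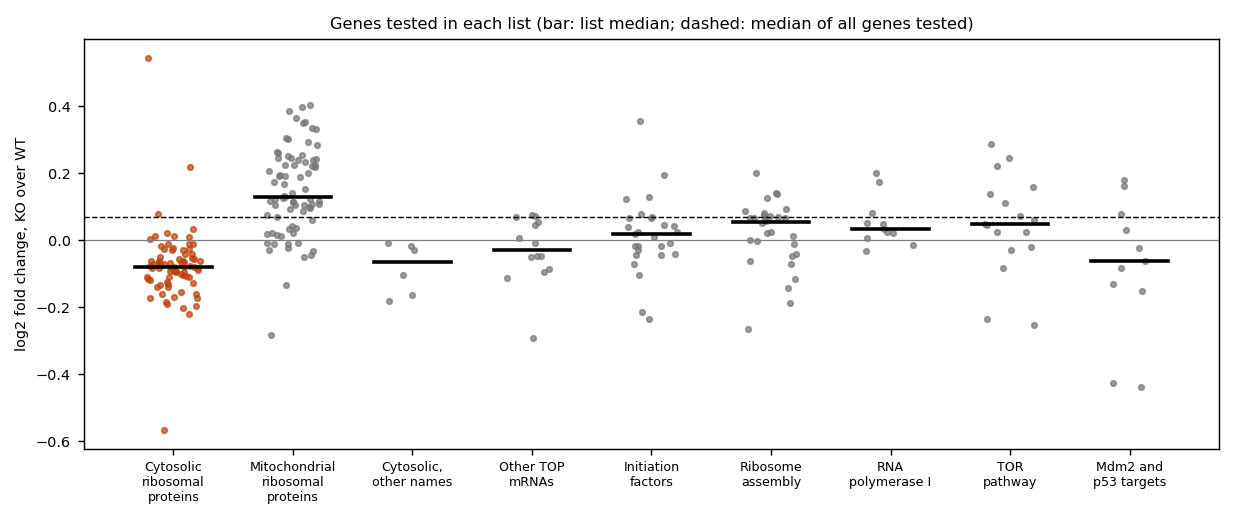
Log2 fold change (KO over WT) of each gene tested, by list, from cytosolic ribosomal proteins on the left to Mdm2 and p53 targets on the right; bars are list medians and the dashed line is the median of all genes tested, 0.068. The cytosolic genes centre on -0.079 and the mitochondrial genes on 0.129, and 0 genes in these lists passed the threshold.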

How the data were processed

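Whole brachiocephalic artery lesions of 3 KO and 3 WT mice were sequenced, and groups and replicate numbers came from the sample titles. The authors deposited raw read counts per gene, made with featureCounts 1.4.6-p4 over a UCSC mm9 annotation, per the file headers, and a summary of counting outcomes; the submitters' processing notes also name CASAVA, STAR 3.0, Subread and DESeq2. The header sets no option for multi-mapping, overlapping or stranded reads. The labels do not say whether libraries share a litter or a run, so p-values measure only the spread between these samples.

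Counts were tested with edgeR 4.0.16 in R 4.3.3 (glmQLFit, glmQLFTest, two-sided, TMM, filterByExpr with its default minimum count of 10) over the 15937 genes that passed the filter, with Benjamini-Hochberg adjustment and a threshold of 0.05. This step was tested on simulated data. CPM are counts divided by effective library size, times 1000000, and log2 CPM used a prior count of 2. Standard errors in edgeR were computed as the absolute log2 fold change over the square root of the F statistic. Intervals cover 95% and used the t distribution that gives the reported p with that standard error. The count floor was 3 per library and covers counting error only. Exon overlaps used the mm9 coordinates of the count table. Repeated stretches and mRNA alignments (Biopython 1.88) used GENCODE M21 transcripts, since no genome sequence was used here, and the alignment, the 10-base window around the start and the minimum of 10 CPM were chosen after values were seen. Protein identity, which the plan held, was not analysed here.

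The members and lists were chosen with earlier results of these data known. Named genes were those under 1 CPM in all libraries, 8 per direction by unadjusted p, and the 5 highest and 5 lowest per kb. Copies and partners, Rpsa and the stalk, 8 anaemia genes, Rps6, the 3 most like the list mean, and up to 3 per other list were named too. Genes with overlapping exons, Rpl9, Rpl15, Rpl23a and Eif4a2 were named after their values were seen. A few genes are not reported here by name. Alternatives were other scalings, filters and tools, Rn45s removed, a replicate block, and libraries left out; deviations by total counts were added after values were seen.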

Additional observations from a re-analysis of the deposited data

How the results depend on the processing

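Under 16 other settings 0 ribosomal protein genes passed, and their median log2 fold change stayed negative. It was -0.101 with RLE size factors, -0.106 with upper-quartile scaling, -0.120 with total counts, -0.085 without WT 2 and KO 3, and -0.172 to -0.026 when a single library was left out, the extremes being without KO 2 and without KO 3. Genes with a positive log2 fold change numbered 5 with RLE, 4 with upper-quartile scaling, 3 with total counts, 5 with DESeq2, and 3 to 29 with a single library left out: 29 without KO 3 and 24 without WT 1, but 3 without KO 2, WT 2 or WT 3. Over all genes tested, DESeq2 called 63 and the fit without WT 2 and KO 3 called 1, against 0 otherwise. Members whose groups did not overlap numbered 10 with total counts, 9 of them with KO below, as had 10.1% of all genes with that scaling. The median of all genes, 0.068, was 0.018 with total counts, -0.0030 without KO 3 and -0.017 without WT 3.

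Of the 37 named genes tested, 23 kept their sign under every setting in which they were tested (Rpl34 and Rps27 did not pass the minimum count of 50) and 14 did not, each with a log2 fold change between -0.077 and 0.079. With RLE, upper-quartile, total counts and DESeq2 in turn, Rpl21 was at -0.0094, -0.016, -0.030 and -0.0093, Rpl22 at -0.011, -0.019, -0.035 and -0.011, and Rps6 at -0.0083, -0.017, -0.029 and -0.0082. Rpl4 was at -0.0063 with upper-quartile scaling and -0.020 with total counts, and Rpl36 at -0.0045 with total counts. Without WT 2 and KO 3, Rpl22 was at -0.014, Rpl36 at -0.062 and Rps6 at -0.038. With a single library left out in turn, the values ran from -0.061 to 0.080 for Rpl21, -0.049 to 0.023 for Rpl22, -0.036 to 0.061 for Rpl4, -0.079 to 0.089 for Rpl36, -0.092 to 0.17 for Rps21, -0.084 to 0.040 for Rps6, -0.13 to 0.020 for Rpl10, -0.12 to 0.046 for Rpl35a, -0.16 to 0.012 for Rpl5, -0.22 to 0.0029 for Rpl8, -0.16 to 0.024 for Rplp2, -0.11 to 0.012 for Rps24, -0.17 to 0.018 for Rps4x and -0.13 to 0.026 for Rps15a. The cause was not tested. The replicate block gave 0 genes, 9 positive members and a median of -0.082. Libraries with the same replicate number had deviations from their group mean with r of 0.43, -0.68 and -0.58. KO 3 and WT 2, the libraries with high neuronal markers, went together (r of 0.77), and this shapes the other values. Whether the numbers pair the samples therefore cannot be read from them. Rpl30, Rps27, Rpl34, Rpl39l and Rpl3l had at most 31 counts in a library.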
